A study of Mus musculus with 4 samples.

Results

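Small nucleolar RNAs, the related RNAs of the Cajal body, and the long, mostly non-coding genes that host them were examined in the nascent RNA of C2C12 myotubes. The members were the rows of the deposited gene count table whose symbols begin with Snora, Snord, Scarna or Snhg and a number, plus Gas5, with at least 15 counts over all 4 libraries. They came to 6 small RNAs and 18 host gene rows, 24 of 23282 features in all. A further 106 small RNA genes and 1 host gene, Snhg5, were listed at 0 in every library. No row fell between 1 and 14 counts. The members just inside the limit were the first Snhg14 row with 41 counts, Snhg11 with 51 and Snord64 with 56, and every row outside it was at 0.

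C2C12 is a mouse myoblast line, labelled female, whose cells fuse into multinucleated myotubes. All cultures had been deprived of steroids. They then received vehicle or 1 µM dexamethasone, a synthetic ligand of the glucocorticoid receptor, for 2 h, with 2 libraries per group. RNA was purified from the washed chromatin pellet of isolated nuclei, so transcripts still attached to their template were enriched. Nothing in the labels says that replicates came from separate cultures, so p-values measure the spread between these libraries only, which may be technical.

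Small nucleolar RNAs are short guides that place chemical marks on ribosomal RNA. Those with C/D boxes direct ribose methylation, those with H/ACA boxes direct the conversion of uridine to pseudouridine, and the Cajal body RNAs do the same for the RNAs of the spliceosome. In mammals most are not transcribed alone but cut from introns of a host gene after splicing. Most of the Snhg genes and Gas5 are hosts whose spliced RNA encodes no conserved protein. In several of them, Gas5 included, that RNA is mostly degraded by nonsense-mediated decay. GENCODE M21 types Snhg4 and Snhg11 as protein-coding. Gas5 RNA accumulates in growth-arrested cells and has been described as a decoy that binds the DNA-binding domain of the glucocorticoid receptor.

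The sequences of 4 of the 6 small RNAs with counts are shown first, with that of 1 small RNA each from Gas5 and Snhg1, to show what the rows stand for. They are GENCODE M21 transcripts matched by Ensembl identifier, written as DNA from 5′ to 3′. In the Snord RNAs the capitals mark the first TGATGA, the letters of box C, and the last CTGA, those of box D. In Snora30 they mark the last ACA.
Snord104: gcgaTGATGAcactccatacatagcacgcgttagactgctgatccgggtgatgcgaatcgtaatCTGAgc
Snord89: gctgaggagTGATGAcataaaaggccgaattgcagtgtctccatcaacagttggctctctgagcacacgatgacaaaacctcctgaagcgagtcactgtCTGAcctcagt
Snord64: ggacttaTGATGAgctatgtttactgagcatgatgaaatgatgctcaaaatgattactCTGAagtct
Snora30: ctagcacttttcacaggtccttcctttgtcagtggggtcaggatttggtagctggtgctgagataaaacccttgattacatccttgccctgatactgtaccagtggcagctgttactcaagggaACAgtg
Snord47: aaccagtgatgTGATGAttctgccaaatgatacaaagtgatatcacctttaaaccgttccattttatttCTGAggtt
Snord22: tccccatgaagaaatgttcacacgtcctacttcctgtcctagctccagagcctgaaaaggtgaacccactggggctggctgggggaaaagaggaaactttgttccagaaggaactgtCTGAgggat
Snord22 holds no TGATGA. Among all 66 Snord sequences that could be matched, 43 held TGATGA together with CTGA in the last 20 bases (65.2%), against 0 of 35 Snora sequences. ACA stood in the last 9 bases of 33 of those 35 Snora sequences (94.3%) and of 6 of the Snord sequences (9.09%). The ACA of Snora30 is followed by 3 bases.

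Whether a small RNA had any count followed its annotated position, as far as longer genes could be matched to rows. Of the 112 small RNA genes in the table, 105 lie, on the same strand in GENCODE M21 (or, for the pair in Snhg7, in the RefSeq span of the gene), within a longer gene that had counts. All 105 were listed at 0. The 6 with counts were matched to no such gene. Scarna2, Scarna17 and Snord104 overlap no longer gene on their strand. Snord64, Snord89 and Snora30 lie within annotated genes whose Ensembl identifiers match no row. Rows of those genes under a symbol alone were not searched for. RefSeq spans were used only for host genes without an Ensembl identifier, so Snord64 was not checked against that of Snhg14. The remaining small RNA, the Snord116 cluster, has no Ensembl identifier in the table and was listed at 0. By class, 3 of 68 C/D box RNAs, 1 of 35 H/ACA box RNAs and 2 of 9 Cajal body RNAs had counts.

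**Figure D1:**
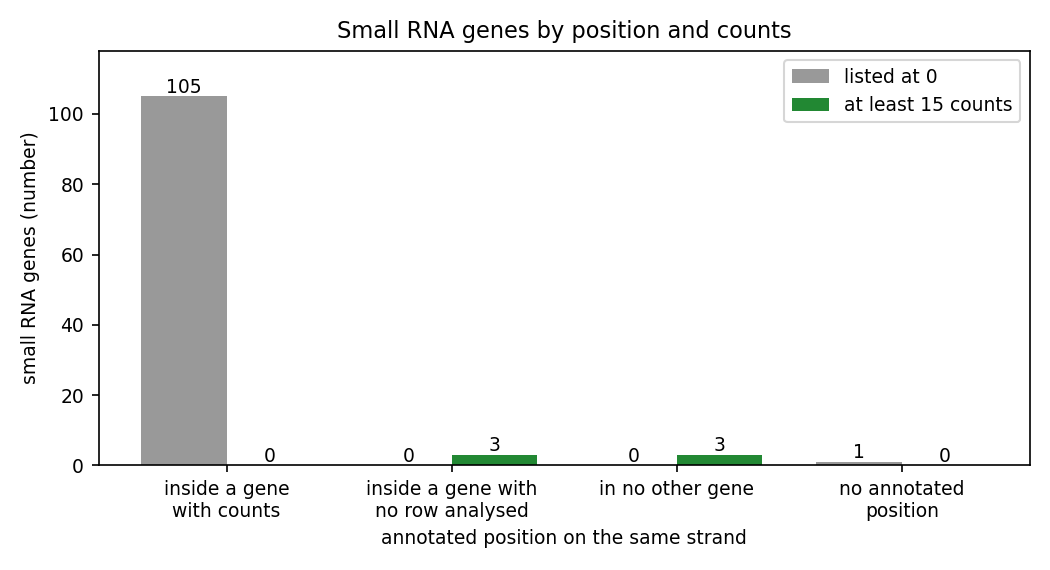
Number of small RNA genes (vertical axis) by annotated position on the same strand (horizontal axis), split into genes listed at 0 (grey) and genes with at least 15 counts (green). All 105 small RNAs inside a gene with counts are at 0, and none of the 6 with counts was matched to such a gene.

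The 105 small RNAs at 0 lie in 77 host genes, whose counts over the 4 libraries ran from 7 to 78867 with a median of 5302. In 49 the small RNA overlapped an annotated exon of the host and in 54 it lay wholly in its introns. Snord47, a guide for ribosomal RNA methylation, lies in Gas5, which had 14987 counts. Snord22, the U22 RNA needed for maturation of the small-subunit ribosomal RNA, lies in Snhg1, which had 7258. Snhg12 with 4283 counts holds Snora16a, Snora44, Snora61 and Snord99, and Snhg16 with 2445 holds Snord1a, Snord1b and Snord1c, all at 0. A small RNA at 0 was therefore not read as absent from these cells. How reads that match both a small RNA and its host were assigned is not given in the sources used here. MicroRNA rows, which are also short and often intronic, gave a weaker form of the same split: inside a gene with counts 36 had any count and 296 were at 0, against 80 and 196 outside.

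The libraries held 19631435 to 88596296 gene counts. The 8 myotube markers examined were all detected. Their summed levels, in CPM (counts scaled by the TMM-adjusted library size), came mostly from Ttn and divided by replicate number. They were 123308 and 43126 CPM in vehicle replicates 1 and 2, and 118865 and 42088 CPM in dexamethasone replicates 1 and 2. For every myotube marker but Mymk, both replicate 1 libraries were above both replicate 2 libraries. The 6 cycling myoblast markers summed to 56.6 and 61.3 CPM in vehicle and 42.0 and 49.9 CPM under dexamethasone. The 3 fibroblast markers summed to 9.17 to 15.2 CPM, with Lum at 0 but Dcn and Pdgfra detected in every library. The 3 macrophage markers summed to 2.96 to 3.94 CPM, nearly all from Cd68, while Ptprc had at most 1 count in a library. Fkbp5, a known glucocorticoid target, had a log2 fold change of 5.32 and was 1 of only 5 genes, all higher, among 13285 tested whose Benjamini-Hochberg adjusted p in edgeR's quasi-likelihood fit was below the 0.05 threshold, and Per1, another known target, reached 2.53 with an adjusted p of 0.117. Per1 did pass with DESeq2 (adjusted p 1.69e-21), with no filter (0.0458) and when any library but vehicle replicate 1 was left out (0.00638 to 0.0280). The libraries also differed by replicate number. The pair of replicate 2 libraries was above the replicate 1 pair in 32.1% of tested genes and below it in 31.8%.

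The 6 small RNAs together took 0.00194% of the counts in vehicle replicate 1 (95% Wilson interval 0.00176% to 0.00215%), 0.00420% in vehicle replicate 2 (0.00399% to 0.00442%), 0.00135% in dexamethasone replicate 1 (0.00123% to 0.00148%) and 0.00302% in dexamethasone replicate 2 (0.00290% to 0.00313%). These intervals cover counting error only. The reads carry no molecular identifiers, so copies of the same molecule may count as separate reads and the intervals may be too narrow. Within each group replicate 2 held the larger share. The group means were 0.00307% ± 0.00160 for vehicle and 0.00218% ± 0.00118 for dexamethasone (SD, n = 2 each), a difference smaller than the SD of either group (two-sided exact permutation p = 0.667, where the smallest p that 2 against 2 libraries allow is 0.333). That SD is the split by replicate number. Within each number the dexamethasone share was the lower one. The intervals leave out the spread between libraries and cannot judge that difference, and a test within numbers was not made.

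Scarna2 guides modification of the U2 spliceosomal RNA and is known to be transcribed from a promoter of its own. With 3391 counts it held most of the small RNA counts. Its level was 7.67 and 29.3 CPM in vehicle replicates 1 and 2, and 6.81 and 20.7 CPM in dexamethasone replicates 1 and 2. The libraries thus divided by replicate number and not by treatment, with both replicate 2 libraries above both replicate 1 libraries. The log2 difference of replicate 2 from replicate 1 was 1.93 in vehicle and 1.60 in dexamethasone. Within each number dexamethasone was lower, by a log2 difference of -0.17 in replicate 1 and -0.50 in replicate 2. Dexamethasone against vehicle gave a log2 fold change of -0.43 (SE 0.811, 95% interval -2.58 to 1.72), with an edgeR adjusted p of 0.9999. With the replicate number as a block it was -0.40 (edgeR adjusted p 0.0518), in a fit that called 12.7% of all tested genes.

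Scarna17, the other Cajal body RNA with counts, divided the same way at a lower level. It stood at 0.751 and 2.00 CPM in vehicle and at 0.734 and 1.88 CPM under dexamethasone, which are 14, 76, 22 and 176 counts. Within each replicate number the groups were close: the log2 difference of dexamethasone from vehicle was -0.03 in replicate 1 and -0.09 in replicate 2. The fitted value was -0.08 (SE 0.685), and with libraries thinned to the smallest total it was 0.0267.

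Of the C/D box RNAs, Snord104, a guide for the large ribosomal RNA, had 7.51 and 3.48 CPM in vehicle and 3.90 and 3.26 CPM under dexamethasone. Vehicle replicate 1 stood above the other libraries, and both replicate 1 libraries were above both replicate 2 libraries, the opposite order to Scarna2. Its log2 fold change was -0.61 (SE 0.431, edgeR adjusted p 0.9999), and without vehicle replicate 1 it was 0.0373. Snord89 had 2.90 and 2.61 CPM in vehicle and 1.87 and 1.61 CPM in dexamethasone. Here both dexamethasone libraries lay below both vehicle libraries, and replicate number made little difference. The log2 fold change of Snord89 was -0.67 (SE 0.284), the lowest among the tested members, and leaving out any one library gave -0.77 to -0.56. It did not pass, with an edgeR p of 0.0710 before adjustment and 0.964 after.

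Snord64, which lies in the imprinted domain of Snrpn and Snhg14, was the sparsest, with 10 and 10 counts in vehicle and 19 and 17 under dexamethasone, or 0.536 and 0.264 against 0.634 and 0.182 CPM. Each group holds a higher and a lower library. Its log2 fold change was -0.02 (SE 0.809). Snora30, the H/ACA box RNA with counts, had 1.07 and 1.21 CPM in vehicle and 0.634 and 0.996 CPM in dexamethasone, from 20, 46, 19 and 93 counts. The groups did not overlap, with a log2 fold change of -0.47 (SE 0.400, edgeR adjusted p 0.9999).

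**Figure D2:**
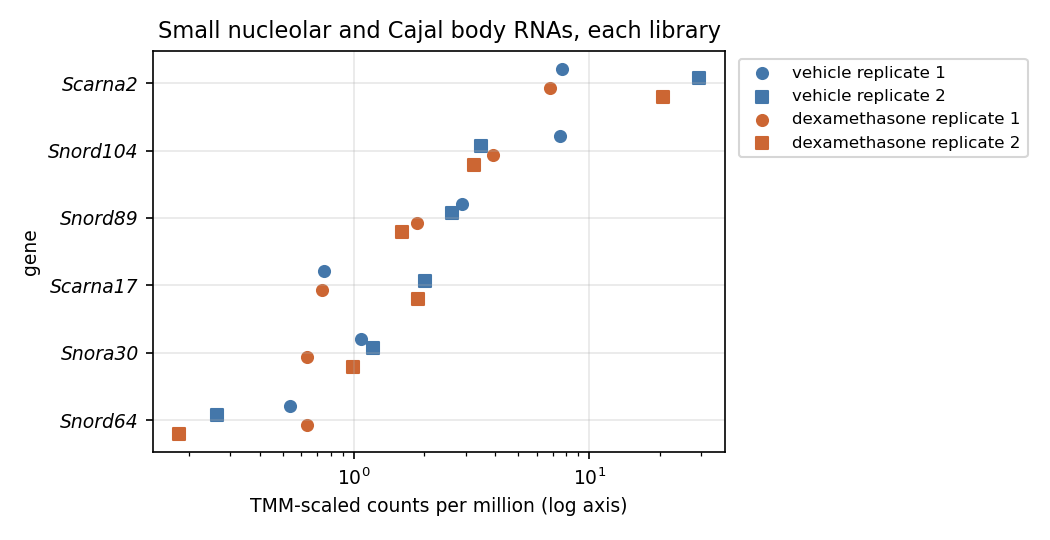
Level of the 6 small RNAs in each library, as TMM-scaled CPM on a log axis; blue is vehicle, orange is dexamethasone, circles are replicate 1 and squares replicate 2. Scarna2 and Scarna17 separate by symbol shape, while Snord89 separates by colour, at 2.61 and 2.90 against 1.61 and 1.87.

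Across the 6 small RNAs all fitted log2 fold changes were below 0, from -0.67 to -0.02 with a median of -0.45, against a median of -0.00 over all tested genes; Snord64 was just above 0 with DESeq2 and with no filter on low counts, and Scarna17 in thinned counts. None passed the threshold, where 0.0376% of all tested genes did, and none had an unadjusted p under 0.05 in edgeR, where 4.09% of all tested genes were higher and 1.69% lower at that level. DESeq2 also called 0 of the 6, against 2.22% of all genes it tested. In 2 of 6, Snord89 and Snora30, both dexamethasone libraries lay below both vehicle libraries, and in 0 of 6 above. Over all tested genes those shares were 12.9% and 15%. Per length of annotated RNA, Snord104 had the highest mean level at 64.8 CPM per kb (46.5 to 107 across libraries), followed by Scarna2 at 38.9 (16.4 to 70.8), Snord89 at 20.4 (14.6 to 26.3), Scarna17 at 17.0 (9.29 to 25.4), Snora30 at 7.53 (4.88 to 9.32) and Snord64 at 6.03 (2.72 to 9.46). Every neighbouring pair in this order had overlapping ranges.

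A list of other short non-coding RNAs was set beside them. Of 14 listed, 7 had a row and 6 were tested. Their log2 fold changes were all below 0 as well, from -1.16 to -0.37 with a median of -0.48, and 0 passed (DESeq2 also 0; 0 had an unadjusted p under 0.05 in edgeR). With vehicle replicate 1 left out, 4 of the 6 were still below 0. Terc, the telomerase RNA, which ends in an H/ACA domain, had 16 and 48 counts in vehicle replicates 1 and 2 and 20 and 81 under dexamethasone, with a log2 fold change of -0.47 (SE 0.402). Rmrp, the RNA of the nucleolar enzyme RNase MRP that cleaves precursor ribosomal RNA, had 28998, 42952, 33467 and 74624 counts and -0.49 (SE 0.256), with the groups not overlapping. Rmrp was called with the replicate number as a block (-0.49, edgeR adjusted p 0.00170), in a fit that called 12.7% of all tested genes.

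The short RNAs did not share one direction between replicate numbers. Rpph1, the RNA of RNase P, had a log2 difference of replicate 2 from replicate 1 of 1.75 in vehicle and 0.83 in dexamethasone, in the direction of Scarna2. Rnu11, the U11 RNA of the minor spliceosome, had 394, 63, 252 and 175 counts and differences of -3.64 and -2.14, in the direction of Snord104 and Snord64. Among the 6 small RNAs, 2 were higher in both replicate 2 libraries (Scarna2 and Scarna17), 2 were higher in both replicate 1 libraries (Snord104 and Snord64) and 2 overlapped. This split is near that of all tested genes, with 32.1% higher in replicate 2 and 31.8% higher in replicate 1. What the replicate number stands for is not given in the labels.

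**Figure D3:**
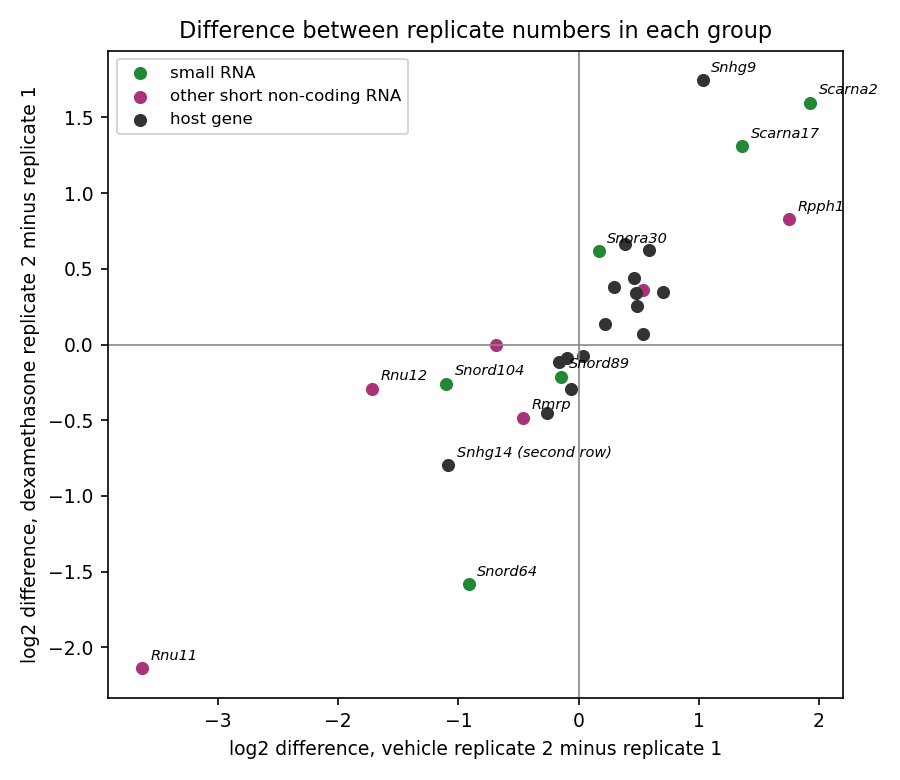
Log2 difference of replicate 2 from replicate 1 within vehicle (horizontal axis) and within dexamethasone (vertical axis) for the tested small RNAs (green), other short non-coding RNAs (purple) and host genes (black). Rnu11 lies lowest at -3.64 and -2.14 and Scarna2 is far to the right at 1.93 and 1.60, while Rnu12 at -1.72 and -0.29 is far from 0 in vehicle only.

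The 18 host rows took 0.0369% and 0.0463% of all counts in vehicle and 0.0347% and 0.0416% under dexamethasone, again with the larger share in replicate 2. Per length of the RefSeq gene span, Gas5 stood first at 21.9 CPM per kb (20.1 to 24.2 across the 4 libraries), above the range of every other host with a length. Snhg1 followed at 14.96 (13.03 to 18.0), and its range overlapped that of Snhg3 at 10.8 (8.73 to 13.2) and of Snhg12 at 10.1 (8.07 to 13.3). The hosts from Snhg8 at 9.97 down to Snhg17 at 8.48 could not be ordered, since their ranges overlap. Snhg10 at 1.65 and Snhg18 at 0.944 were low, and Snhg11 at 0.0590 was lowest. Snhg14 was left out of this order because the table gives it as a pair of rows with different counts. The span includes introns, and whether intron reads were counted is not given in the sources used here. The order may therefore not hold per length of exon.

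Gas5 holds 10 annotated small RNA genes, the most of any host but Snhg14, and Snhg1 holds 8. Gas5 had 95.3 and 85.2 CPM in vehicle and 85.7 and 79.3 CPM under dexamethasone, from 1777, 3233, 2570 and 7407 counts. The groups overlapped narrowly, and both replicate 1 libraries were above both replicate 2 libraries. The means were 90.3 ± 7.16 and 82.5 ± 4.54 CPM (SD, n = 2 each), with a log2 fold change of -0.13 (SE 0.131, 95% interval -0.48 to 0.22, edgeR adjusted p 0.9999). Within replicate 1 the log2 difference of dexamethasone from vehicle was -0.15 and within replicate 2 it was -0.10. The interval leaves out a change of Gas5 as large as 1 on the log2 scale in either direction.

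Snhg1 had 44.3 and 37.0 CPM in vehicle and 51.2 and 37.4 CPM in dexamethasone. The replicate 2 libraries were nearly equal and only replicate 1 differed between the groups. Its log2 fold change was 0.12 (SE 0.213). Snhg17, the second most abundant host by counts, had 63.5 and 73.7 CPM in vehicle and 61.1 and 67.1 CPM in dexamethasone, a log2 fold change of -0.10 (SE 0.144) with overlapping groups.

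Snhg12 had 22.3 and 31.2 CPM in vehicle and 18.9 and 22.7 CPM in dexamethasone. Its groups overlapped, but within each number dexamethasone was lower, by a log2 difference of -0.23 in replicate 1 and -0.46 in replicate 2. The fitted log2 fold change of -0.36 was the lowest among the tested hosts (SE 0.227, edgeR unadjusted p 0.176, adjusted p 0.9999). With the replicate number as a block Snhg12 was the 1 member called (-0.37, edgeR adjusted p 0.0372), in a fit that called 12.7% of all genes, 6.87% higher and 5.78% lower. Leaving out vehicle replicate 2 brought its log2 fold change to -0.0886, and leaving out vehicle replicate 1 to -0.58. At the other end, Snhg16 had 9.01 and 14.7 CPM in vehicle and 11.6 and 14.7 CPM in dexamethasone. Its log2 fold change of 0.15 (SE 0.300) rested on vehicle replicate 1, and without that library it was -0.16.

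Snhg18 and Snhg20 were the tested hosts in which both dexamethasone libraries lay below both vehicle libraries. Snhg18 had 4.35 and 4.06 CPM against 3.64 and 3.42 CPM, and a log2 fold change of -0.25 (SE 0.226). Snhg20 had 15.5 and 15.9 CPM against 15.1 and 14.3 CPM, and a log2 fold change of -0.09 (SE 0.151). Neither divided by replicate number. These 2 of 16 tested hosts compare with 12.9% of all tested genes, and 0 of 16 lay the other way.

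Snhg4, Snhg9 and Snhg10 showed the wider spread within groups that came with replicate number. Snhg9, the shortest host by gene span, had 1.02 and 2.13 CPM in vehicle and 0.534 and 1.90 CPM in dexamethasone, with a log2 fold change of -0.36 (SE 0.724). Snhg4 had 36.2 and 54.3 CPM against 31.9 and 49.3 CPM, and -0.15 (SE 0.309). Snhg10, which holds Scarna13, had 2.47 and 3.24 CPM against 2.04 and 3.25 CPM, and -0.11 (SE 0.357). In all 3 the replicate 2 libraries were the higher ones in both groups. Over the tested hosts, 10 of 16 were higher in both replicate 2 libraries and 4 in both replicate 1 libraries, beside 32.1% and 31.8% of all tested genes.

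Snhg3, Snhg6, Snhg7, Snhg8 and Snhg15 had log2 fold changes between -0.15 and 0.04, and all overlapped between the groups. Snhg3 ranged from 15.3 to 23.2 CPM over the libraries, Snhg6 from 9.51 to 12.4, Snhg7 from 22.8 to 31.8, Snhg8 from 6.38 to 9.28 and Snhg15 from 24.3 to 29.8. Among these, Snhg7 took the other sign with library size as the sole scaling and Snhg8 with no filter, both with values next to 0.

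**Figure D4:**
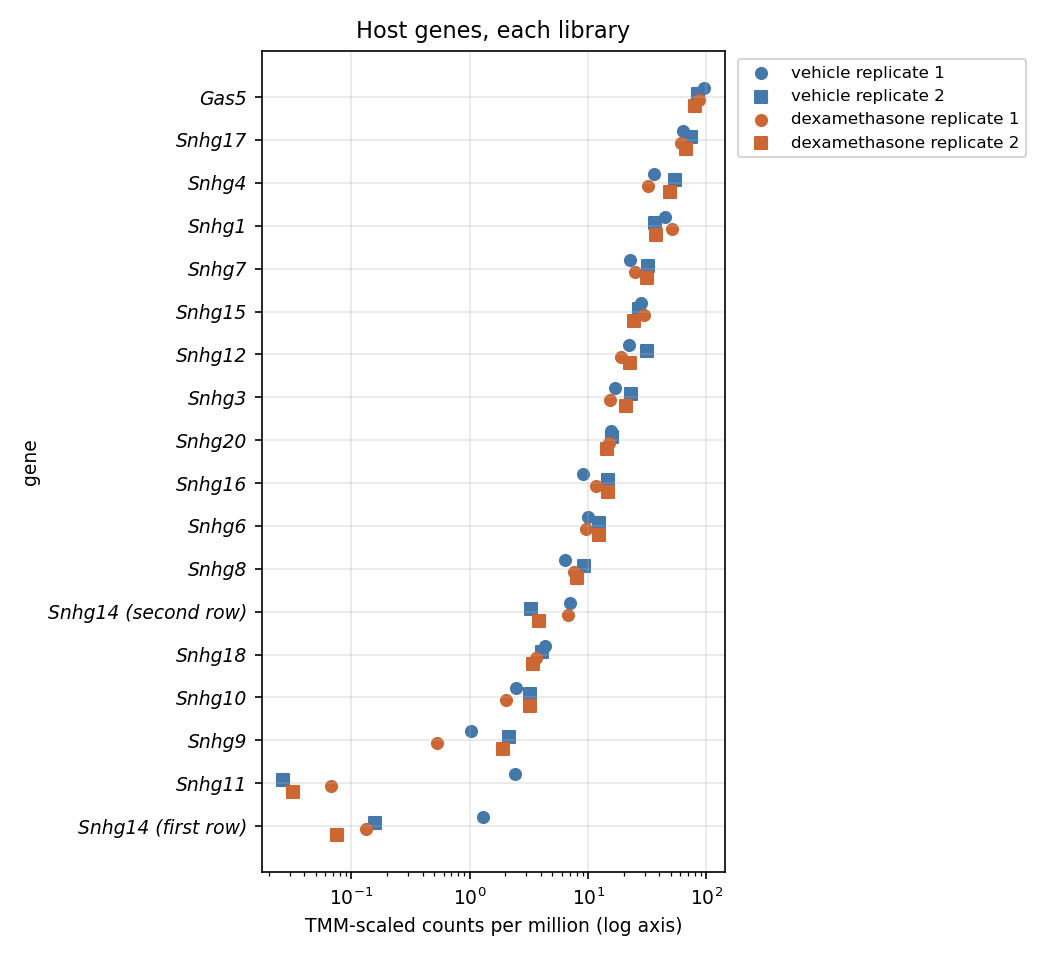
Level of the 18 host gene rows in each library, as TMM-scaled CPM on a log axis; blue is vehicle, orange is dexamethasone, circles are replicate 1 and squares replicate 2. Gas5 lies at 79.3 to 95.3 with its 4 symbols close together, while Snhg11 and the first Snhg14 row have vehicle replicate 1 far above the other libraries.

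Snhg11 and the first Snhg14 row were too sparse for the filter and had no fitted value. Snhg11 had 45 and 1 counts in vehicle replicates 1 and 2 and 2 and 3 under dexamethasone. In the same order the first Snhg14 row had 24, 6, 4 and 7. Vehicle replicate 1, the smallest library, held most of the counts of each. Both genes are known for expression in the brain, and Snhg14 is the long imprinted transcript that carries the Snord115 and Snord116 clusters. Neuronal genes stood out in the same library: Snap25 had 160, 1, 1 and 4 counts, Syt1 245, 3, 10 and 17, and Gad1 63, 0, 0 and 0. Of 15 neuronal markers, listed after these values were seen, 11 were highest in vehicle replicate 1, and 2, Elavl3 and Slc32a1, were at 0 throughout. Nefm and Slc17a6 were highest in dexamethasone replicate 1. The summed level of the markers was 75.4 CPM in vehicle replicate 1, against 31.1 in vehicle replicate 2 and 14.3 and 32.9 in the dexamethasone libraries. Much of each sum came from genes with counts in every library: Dcx (22.6 and 16.7 CPM in vehicle, 7.77 and 20.8 under dexamethasone) and Stmn2 (15.7 and 11.9, 4.77 and 8.89). The part of these neuronal genes in the Snhg11 and Snhg14 values was not tested. The second Snhg14 row did not follow them, with 7.08 and 3.32 CPM in vehicle and 6.77 and 3.88 CPM in dexamethasone, and a log2 fold change of 0.04 (SE 0.489).

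Of the 16 tested hosts, 12 had a log2 fold change below 0 and 4 above, beside 6684 and 6601 of all tested genes. The host values ran from -0.36 to 0.15 with a median of -0.09. None passed the threshold in edgeR or DESeq2 and none had an unadjusted p under 0.05, beside 0.0376% and 5.78% of all tested genes. The direction of the group rested on single libraries: without vehicle replicate 2, 10 of 18 tested were above 0 and the median was 0.0140. In 13285 genes the common biological coefficient of variation was 0.245, and the standard errors of the hosts ran from 0.131 for Gas5 to 0.724 for Snhg9, so only large changes could be called in most of them.

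**Figure D5:**
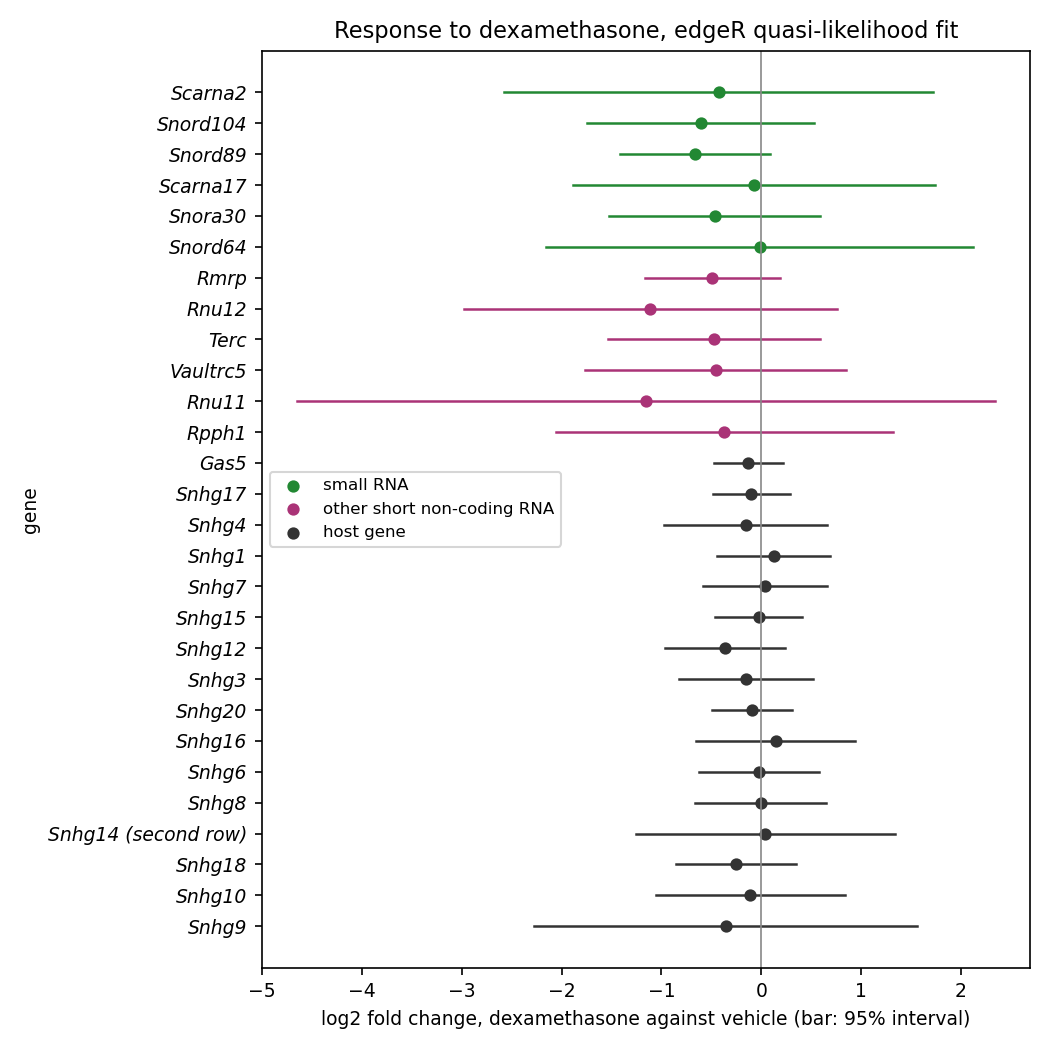
Log2 fold change of dexamethasone against vehicle (horizontal axis) with its 95% interval for the 6 small RNAs (green), 6 other short non-coding RNAs (purple) and 16 tested host genes (black). Every interval crosses 0, and the narrowest among the members is that of Gas5, from -0.48 to 0.22.

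The proteins that act with these RNAs were counted from fixed lists. All 8 core proteins of the small nucleolar particles were tested. Fbl, the methyltransferase of the C/D particle, had a log2 fold change of 0.05 (SE 0.273) and its partners Nop56, Nop58 and Snu13 had 0.07, 0.05 and 0.10. Dkc1, the pseudouridine synthase of the H/ACA particle, had 0.12 (SE 0.194), and Gar1, Nhp2 and Nop10 had 0.14, 0.10 and -0.02. None passed, 7 were above 0, and without vehicle replicate 2 only 2 were. Over all 13285 tested genes, the background for each of these lists, 6601 were above 0 and 5 passed.

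Of 14 assembly factors, 10 were above 0 and 4 below, with a median of 0.05, and 0 passed. Znhit6, which takes part in assembly of the C/D particle, had the lowest p of this list. Its counts were 932, 2209, 2226 and 7189, so both dexamethasone libraries were above both vehicle libraries in CPM. The log2 fold change was 0.48 (SE 0.139, edgeR unadjusted p 0.0208, adjusted p 0.578), and with the replicate block the adjusted p was 0.00607. Of 10 factors of nonsense-mediated decay, 7 were above 0 and 3 below, with a median of 0.05, and 0 passed. With the replicate block Smg1, the kinase of this pathway, was called (0.28, edgeR adjusted p 0.0286). The block fit, which also called Znhit6, called 12.7% of all tested genes.

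Protein-coding genes that carry small nucleolar RNAs in their introns were the last list, and 43 of 44 listed had a row and were tested. They divided into 23 above 0 and 20 below, with a median of 0.02 and a range of -0.41 to 0.24, and 0 passed in edgeR or DESeq2. The split rested on single libraries. It was 12 above and 31 below without vehicle replicate 2 or dexamethasone replicate 1, and 30 above and 13 below without either of the others. With library size scaling it was 17 above and 26 below. With the replicate block, Eif4a1, a translation initiation factor gene, was called (-0.24, edgeR adjusted p 0.0469), in a fit that called 12.7% of all tested genes. The lowest p-values in this list belonged to Hspa8, a constitutive heat shock protein gene, at -0.35 (SE 0.185), and to the ribosomal protein genes Rpl13a at -0.27 (SE 0.153) and Rpl5 at -0.41 (SE 0.308). Between replicate numbers this list leaned the other way from the Snhg genes and Gas5. Of the 43, 26 were higher in both replicate 1 libraries and 7 in both replicate 2 libraries. All tested genes gave 31.8% and 32.1% in the same order. Whether the lists differ in this was not tested.

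The promoters of the hosts, from 250 bases before to 50 after each RefSeq start in GRCm38.p6, were searched on both strands for the core letters of the glucocorticoid receptor element. Sequences were found for 16 of the host genes, in 18 promoters. ACANNNTGT stood in 1 of these 18, a promoter of Snhg1, and in 6.85% of all 32851 promoters of this length.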

How the data were processed

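The authors deposited 1 table of whole-number read counts, not normalized. Per the submitters' processing notes, TopHat2 2.0.13, SAMtools 1.1, HTSeq 0.6.1, DESeq2 1.18.1 and the build mm9 were used. The annotation, the strand setting and the treatment of overlapping genes are not given in the sources used here, and the labels name both a stranded total RNA kit and a stranded mRNA kit. Columns were matched to samples by name, and the group and replicate number came from the titles.

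Of 23333 rows, 51 that repeat a gene and its counts were used once. Genes were filtered with filterByExpr (minimum count 10, minimum total 15), scaled by TMM (factors 0.924 to 1.08) and tested with edgeR 4.0.16 in R 4.3.3 (quasi-likelihood, group only, two-sided, Benjamini-Hochberg over all 13285 tested genes, threshold 0.05). The code was first checked on simulated data, which had less spread than these libraries and no difference by replicate number. Standard errors are the log2 fold change over the root of F. Within-number log2 differences use a prior count of 2. All 6 small RNAs and 16 of 18 host rows were tested. Totals were 19631435 and 35116830 counts in vehicle replicates 1 and 2 and 32463331 and 88596296 under dexamethasone, where in the same order 3 counts are 0.161, 0.0791, 0.100 and 0.0321 CPM. No pair of libraries agreed within sampling noise (chi-square per degree of freedom 45.8 to 245).

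Positions, host genes and sequences came from GENCODE M21 (GRCm38) by Ensembl identifier and from RefSeq, and no coordinates are given because the builds differ. Members and lists were chosen with earlier results of these data known. Named were all hosts, the 10 most abundant small RNAs (here all 6), small RNAs inside Gas5 or Snhg1, the 4 small RNAs with the largest rise and fall among those with 20 counts in every library, the core proteins, at most 3 members of each other list with the lowest p, and Fkbp5 and Per1. The neuronal genes, and Rpph1 and Rnu11, were chosen after their values were seen. None of the mitochondrial genes listed as markers had a row, and 1 small RNA row is left out.

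Alternatives tried were scaling by DESeq2 size factors or by library size, a filter of 1 count in total or one of 10 in each library, the Wald test of DESeq2 1.42.0, the replicate number as a block, counts thinned to the smallest total, and leaving out each library.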

Additional observations from a re-analysis of the deposited data

How the results depend on the processing

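Depth and 2 libraries per group limit these results, and with 1 library left out the lone library is assumed to vary like the other group. Over all genes the 5 called higher became 23 with no filter, 236 with DESeq2 and 913 with the replicate block, and ranged from 4 to 84 with single libraries left out; the 0 called lower became 53 with DESeq2 and 768 with the block, and 0 to 109. Host genes called lower went from 0 to 1 with the block (Snhg12, -0.37, adjusted p 0.0372), and to 0 to 1 with a library left out (Snhg11 at -5.74 without vehicle replicate 2). Replicate 2 minus replicate 1 correlated between the groups across genes at 0.734, but the labels do not say what a shared number marks, so the block pairs by number only; it changed no other member call, and in the other lists it called Rmrp, Znhit6, Smg1 and Eif4a1, and it also called Per1 (adjusted p 2.19e-05). No small RNA was called under any alternative. The median log2 fold change of the small RNAs stayed between -0.48 and -0.39 under the other settings and between -0.70 and -0.44 with a library left out; that of the hosts lay between -0.14 and -0.09, and between -0.19 and 0.0140. Changes of sign occurred for Scarna17 (0.0267, thinned), Snord64 (0.0179, no filter), Snord64 (0.00632, DESeq2), Snhg7 (-0.00130, library size), Snhg8 (0.00502, no filter), the second Snhg14 row (-0.0531, thinned), Snu13 (-0.0141, thinned). With single libraries left out, log2 fold changes that changed sign ranged as follows: Dkc1 -0.00104 to 0.27, Fbl -0.20 to 0.37, Gar1 -0.27 to 0.45, Nhp2 -0.15 to 0.41, Nop10 -0.50 to 0.40, Nop56 -0.0871 to 0.24, Nop58 -0.16 to 0.24, Rnu11 -2.57 to 1.61, Rnu12 -1.80 to 0.000813, Rpph1 -0.99 to 0.77, Scarna17 -0.93 to 0.85, Scarna2 -1.45 to 0.86, Snhg1 -0.11 to 0.33, Snhg10 -0.49 to 0.18, the second Snhg14 row -0.42 to 0.67, Snhg15 -0.17 to 0.11, Snhg16 -0.16 to 0.55, Snhg17 -0.20 to 0.0231, Snhg3 -0.39 to 0.11, Snhg4 -0.51 to 0.18, Snhg6 -0.23 to 0.15, Snhg7 -0.18 to 0.31, Snhg8 -0.24 to 0.30, Snhg9 -1.57 to 0.32, Snord104 -1.07 to 0.0373, Snord64 -1.08 to 0.70, Snu13 -0.0103 to 0.21. The causes were not tested.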
